A study of Mus musculus with 4 samples.

Results

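The insulin-like growth factor (IGF) family was examined here as 10 genes: the ligands Igf1 and Igf2, the receptor Igf1r, and the binding proteins Igfbp1, Igfbp2, Igfbp3, Igfbp4, Igfbp5, Igfbp6 and Igfbp7. They were selected by gene symbol, all 10 were on the array among 18193 named genes, and 27 probe sets measured them. Total RNA of glomeruli from male mice was hybridised to 1 Affymetrix mouse array for each of 4 groups. KO ALDO and WT ALDO were systemic GC-A knockout (KO) and wild-type (WT) mice given aldosterone by subcutaneous infusion with a 6% salt diet for 3 weeks. KO control and WT control were mice of the same genotypes infused with 2% ethanol on a normal diet. All 4 groups had a kidney removed, so no array shows an animal with both kidneys. GC-A, the product of Npr1, is the receptor through which the heart's natriuretic peptides act. The labels give neither age nor strain, and do not say how many mice stood behind an array.

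IGF-I and IGF-II are secreted growth factors that signal through the receptor tyrosine kinase encoded by Igf1r, which passes the signal to the kinase Akt and restrains FOXO transcription factors. Most of the ligand in blood and tissue is held by binding proteins, which prolong its life, keep it from the receptor or release it when proteases cut them. In the kidney, IGF-I is known for raising filtration and for its part in growth of the remaining kidney after removal of the other.

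A single array stood for each group, so no test was possible and every difference below is between single arrays, whose number limits the precision. Values are the authors' probe set intensities, and differences are of log2(intensity + 16), first-named array minus second, where 1 is 2-fold. The array medians were 103 in KO ALDO, 91.7 in WT ALDO, 97.5 in KO control and 89.2 in WT control. Both KO arrays thus had higher medians than both WT arrays. A gene was called dim when its brightest probe set had a mean under an intensity of about 247, the limit of the brighter 50% of genes (9097). Intensities of different probe sets were not compared with each other. The targeted gene Npr1 had a dim probe set, with 23.4 in KO ALDO, 60.5 in WT ALDO, 108 in KO control and 92.6 in WT control, and the labels do not place it relative to the deletion, so it did not check the genotype labels. Podocyte markers were present, with all 7 measured ones in the brighter 50%. All 10 markers of the proximal tubule and all 8 measured ones of the distal nephron and collecting duct were there too. The RNA was therefore not of glomeruli alone. Summed intensities over the arrays were 189150 to 225712 for the proximal tubule markers and 21371 to 28024 for the podocyte markers. Since different probe sets were not compared, the tubular share of the RNA was not estimated, and it could be large. The ratio of 3' to 5' beta-actin signal, a measure of RNA quality, was 1.61 in KO ALDO, 1.87 in WT ALDO, 1.67 in KO control and 1.86 in WT control.

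Igfbp1 and Igfbp3 varied most among the 7 members that were not dim, and they are neighbours on chromosome 11, with no other protein-coding gene between them in RefSeq. Igfbp2 and Igfbp5 are likewise neighbours on chromosome 1. The 250 bases before the transcription start of the first pair are shown because their values, given below, differed in direction in KO mice (RefSeq, GRCm38.p6, 5' to 3'). The Igfbp1 window is chr11:7197537-7197786 on the plus strand, with capitals marking CAAAACA, the core of the insulin response element that FOXO factors bind. The Igfbp3 window is chr11:7213924-7214173 on the minus strand, with capitals marking TATATA, which resembles the core promoter element of that kind.
Igfbp1: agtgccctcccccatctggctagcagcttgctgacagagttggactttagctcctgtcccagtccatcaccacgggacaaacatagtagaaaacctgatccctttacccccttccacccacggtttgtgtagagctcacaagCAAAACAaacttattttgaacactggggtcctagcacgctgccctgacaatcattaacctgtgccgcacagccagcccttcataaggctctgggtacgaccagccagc
Igfbp3: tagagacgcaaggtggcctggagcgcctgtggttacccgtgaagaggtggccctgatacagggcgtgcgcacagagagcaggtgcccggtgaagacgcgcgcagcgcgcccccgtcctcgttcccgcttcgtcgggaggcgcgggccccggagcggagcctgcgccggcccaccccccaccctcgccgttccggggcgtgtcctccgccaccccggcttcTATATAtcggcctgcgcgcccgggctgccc

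CAAAACA lay 108 to 102 bases before the start of Igfbp1 and was found, on either strand, in 1 of the 14 promoter windows of the 10 members and in 5.56% of all 32851 windows of that length. TATATA lay 30 to 25 bases before the start of Igfbp3 and was found in 5.25% of all windows. The FOXO consensus GTAAACA was in none of the members' windows and in 3.17% of all. The steroid receptor core TGTTCT was in windows of Igf2 and Igfbp2 and in 16.1% of all windows, the hypoxia core ACGTG in windows of Igf2, Igfbp2 and Igfbp7 and in 16.6%, the GC box GGGCGG in windows of Igf1r, Igf2, Igfbp2 and Igfbp7 and in 32.7%, and the core promoter element TATAAA in windows of Igfbp4 and Igfbp6 and in 12.4%. These matches describe letters in a window and not binding.

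The genotypes were compared under aldosterone and salt first. Igfbp1 was the member that differed most between KO ALDO and WT ALDO, at a level 2.74-fold lower in KO ALDO. Of the 7 members in the brighter 50%, 1 was lower past 2-fold and 0 were higher past it, where 0.352% of the 9097 genes were lower and 1.26% higher (115 higher and 32 lower, or 70 and 52 after centring each array on its median). The median of the 7 members was -0.12, against 0.01 over all 9097 genes, with 2 members above 0 and 5 below (Igfbp5 and Igfbp7, near 0, changed side under other scalings). Between KO control and WT control none of these 7 members passed 2-fold, where 0.967% of genes were higher and 0.176% lower (88 and 16, or 62 and 25 after median centring). The members' median was -0.03 there, against -0.002 over all genes.

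Aldosterone and salt were then compared with the control treatment within a genotype. Spiked-in control RNA (18 probe sets) was lower in the ALDO arrays, with median differences of -0.11 in KO and -0.27 in WT. That is a difference between whole arrays, and its part in the ALDO-minus-control values below was not tested. Igfbp3 was higher in both ALDO arrays, while Igfbp1 was lower in KO ALDO and higher in WT ALDO. None of the 7 members passed 2-fold in either genotype by its brightest probe set. In KO mice 0.572% of genes were higher and 0.132% lower by that much, and in WT mice 0.33% were higher and 0.352% lower. The members' medians were 0.0013 in KO and 0.21 in WT, against 0.01 over all genes in each. The difference between the ALDO effects, KO minus WT, passed 2-fold for 1 member, Igfbp1, where 0.594% of genes were higher and 0.33% lower.

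**Figure D1:**
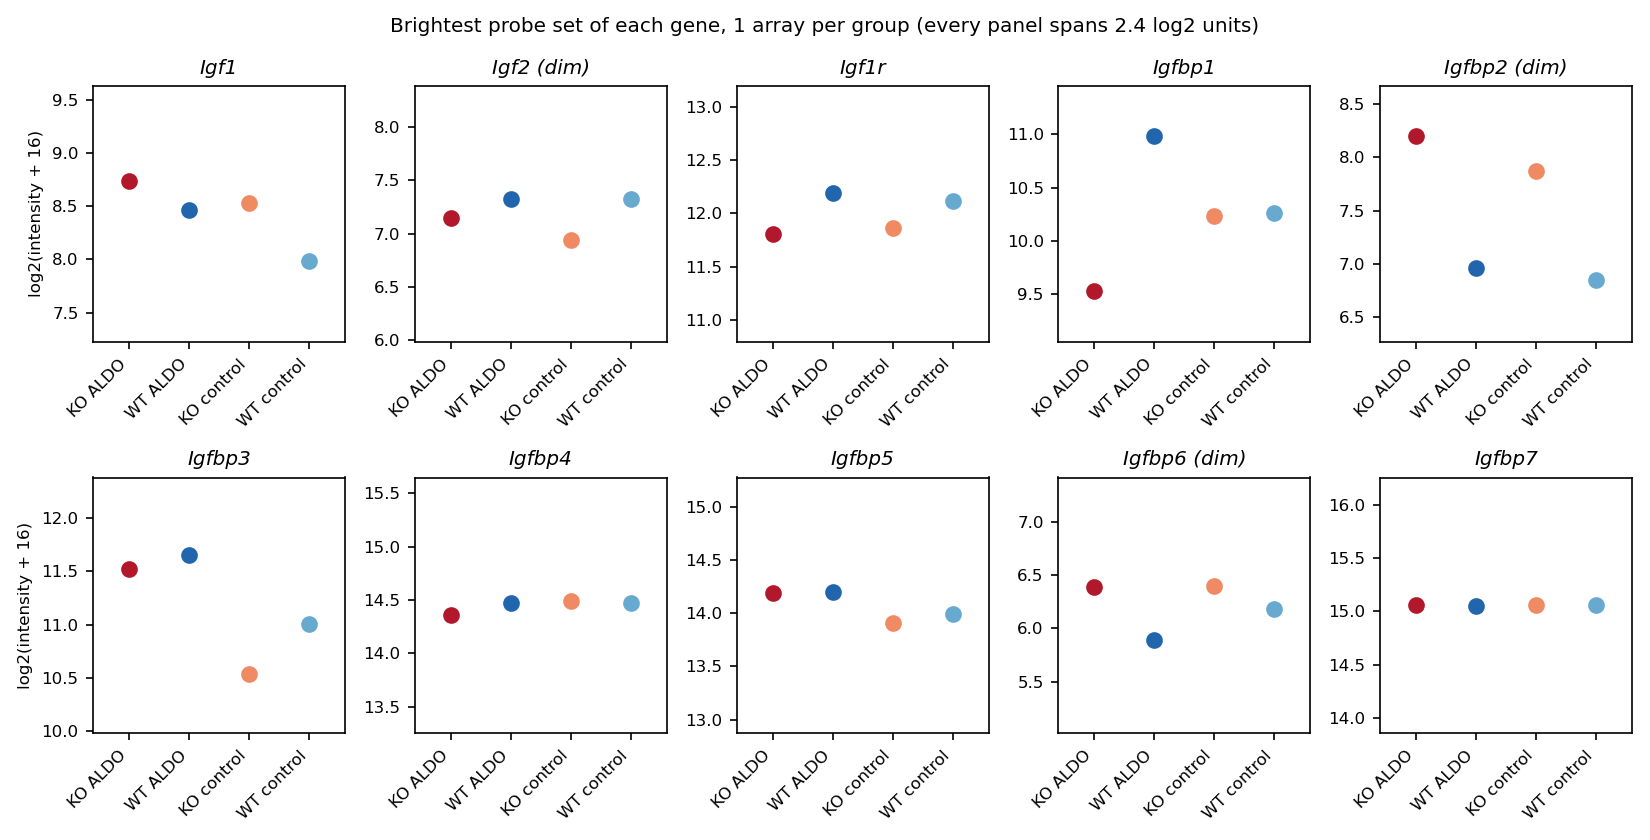
Brightest probe set of each of the 10 genes on the 4 arrays, as log2(intensity + 16) on the vertical axis, with 1 point per array and every panel spanning the same number of log2 units. Igfbp1 has its lowest point in KO ALDO and its highest in WT ALDO, Igfbp3 is high in both ALDO arrays, Igfbp2 is high in both KO arrays, and Igfbp7 is level.

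Igfbp1 encodes a small secreted binding protein known in liver as a gene that insulin represses and fasting induces. Its single probe set (1418918_at) had an intensity of 725 in KO ALDO, 2016 in WT ALDO, 1185 in KO control and 1213 in WT control. The control arrays were nearly equal, and the ALDO arrays lay on opposite sides of them. The KO-minus-WT difference was -1.46 under ALDO, place 4 from the lowest of 9097 genes, and -0.03 under control treatment. The ALDO-minus-control difference was -0.70 in KO, place 67 from the lowest, and 0.73 in WT, place 101 from the highest. The difference of these effects was -1.42, place 8 from the lowest, and it rests on all 4 arrays. Over the alternative settings it ran between -1.37 and -1.45. No second probe set of Igfbp1 was available to compare. In these bulk samples fewer cells of a type and less RNA per cell cannot be told apart.

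The genes whose pattern over the 4 arrays was most like that of Igfbp1, by Euclidean distance between centred log2 values in the brighter 50% of genes, were Erbb3 (distance 0.26), a receptor tyrosine kinase of the epidermal growth factor receptor family, Aacs (0.36), the acetoacetyl-CoA synthetase, and Sesn2 (0.40), a stress-induced sestrin. Erbb3 had 1519 in KO ALDO, 3265 in WT ALDO, 2066 in KO control and 2238 in WT control. Its KO-minus-WT difference was -1.10 under ALDO and -0.11 under control treatment. The pattern of Aacs was of similar size, with -1.04 and 0.24, and that of Sesn2 with -0.94 and -0.16. Likeness over 4 arrays is a description of these arrays.

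Igfbp3 encodes the main IGF carrier of blood, which forms a complex with IGF and the acid-labile subunit. Its brightest probe set (1423062_at) had 2921 in KO ALDO, 3209 in WT ALDO, 1474 in KO control and 2040 in WT control. Both ALDO arrays lay above both control arrays. The ALDO-minus-control difference was 0.98 in KO, place 58 from the highest of 9097 genes and just under 2-fold, and 0.65 in WT, place 144 from the highest. The other probe set gave 1694, 1898, 832 and 1193 in the same order of arrays, with differences of 1.01 and 0.66. The probe sets therefore gave nearly the same differences on the same RNA. KO minus WT was -0.14 under ALDO and -0.46 under control treatment, and the difference of the ALDO effects was 0.33.

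The genes most like Igfbp3 were Fbln5 (distance 0.06), the elastic fibre protein fibulin 5, Dock8 (0.15), which had ALDO differences of 1.10 in KO and 0.66 in WT, and Tcf21 (0.16), a transcription factor of podocytes and stromal cells that is also in the podocyte list used here. Fbln5 had 2110 in KO ALDO, 2189 in WT ALDO, 1015 in KO control and 1405 in WT control. Tcf21 had 2110, 2078, 1033 and 1529 in that order, with ALDO differences of 1.02 in KO and 0.44 in WT. Marker lists of several cell types were also higher in the ALDO arrays. Of 4 smooth muscle markers with a named probe set, the 3 in the brighter 50% were higher in both genotypes. Their medians were 1.19 in KO and 0.73 in WT. Their summed intensities were 9302 in KO ALDO, 4942 in WT ALDO, 3980 in KO control and 3167 in WT control. Among them Myh11 had 510 in KO ALDO, 552 in WT ALDO, 296 in KO control and 178 in WT control. Its place in the brighter 50% therefore leaned on the ALDO arrays, where it was high. Of 6 fibroblast markers, the 4 in the brighter 50% were higher too, with medians of 0.83 and 0.50 and sums of 9848, 5261, 5879 and 4106. The dim ones were mixed, with Col1a1 at 0.84 in KO and -0.69 in WT and Lum at -0.66 in KO and 0.46 in WT. Of 7 podocyte markers, 5 were higher in KO and 4 in WT, with medians of 0.27 and 0.10 and sums of 28024, 25814, 21371 and 22889. Wt1 and Synpo, both in that list, were lower in both genotypes. Of 9 endothelial markers 8 were higher in each genotype, with medians of 0.39 in KO and 0.38 in WT, and sums of 26668, 19526, 21547 and 16673. No marker was at 0 on any array, and the part of these cell types in the Igfbp3 values was not tested.

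**Figure D2:**
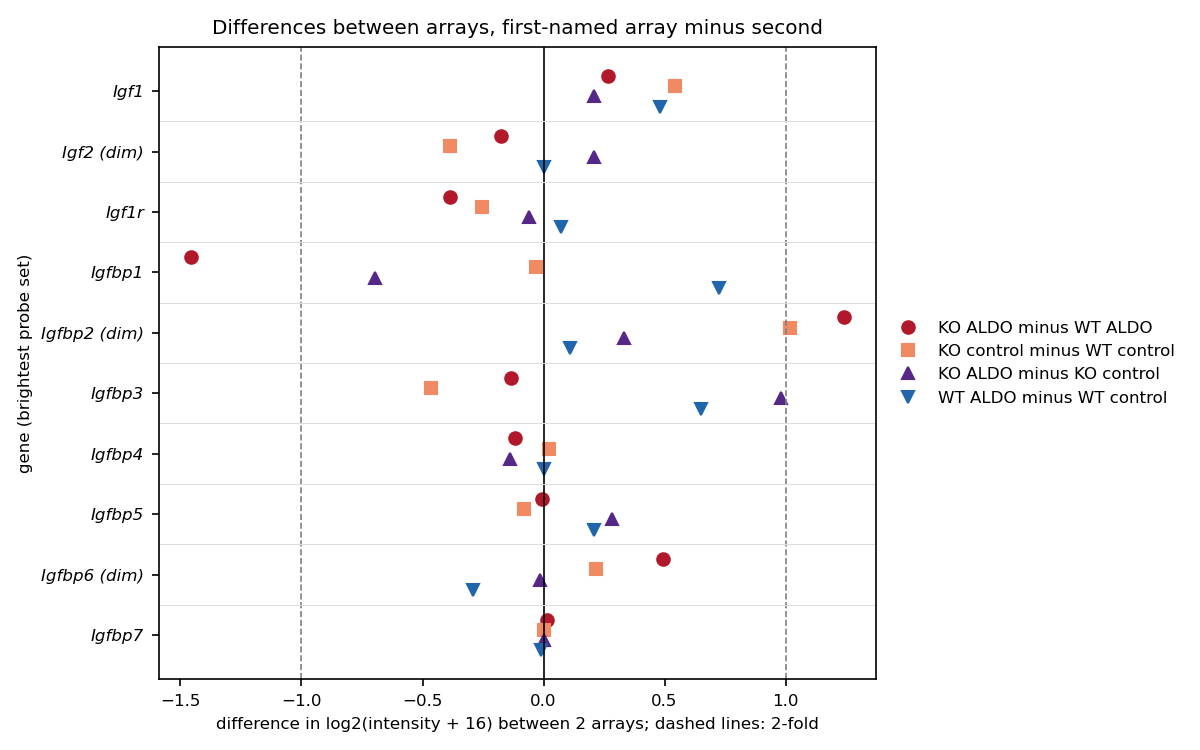
Differences in log2(intensity + 16) between pairs of arrays (horizontal axis) for the brightest probe set of each gene (rows), with 1 marker per comparison and dashed lines at 2-fold. Igfbp1 passes 2-fold between KO ALDO and WT ALDO (-1.46), the dim Igfbp2 passes it in both KO-minus-WT comparisons (1.24 and 1.02), and Igfbp3 lies just under it between KO ALDO and KO control (0.98).

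Igf1r, the receptor of both ligands, was lower in KO under either treatment, by less than 1.5-fold in its 3 probe sets of the brighter 50%. Its brightest probe set (1452982_at) had 3567 in KO ALDO, 4664 in WT ALDO, 3715 in KO control and 4435 in WT control. Both KO arrays lay below both WT arrays, and the ALDO and control arrays of a genotype lay close together. The KO-minus-WT difference was -0.39 under ALDO and -0.25 under control treatment, comparisons that share no array. The other probe sets in the brighter 50% gave -0.53 and -0.46 under ALDO and -0.35 and -0.32 under control treatment, so all 3 were below 0 in each. At place 676 and 1081 from the lowest of 9097 genes, differences of this size were not rare on these arrays. The ALDO-minus-control difference was -0.06 in KO and 0.07 in WT. The dim probe sets of Igf1r had at most 163 on any array, and their KO-minus-WT differences were -0.14 and -0.01 under ALDO and -0.85 and -0.16 under control treatment.

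Proximal tubule markers ran the same way between genotypes. Of 10 markers 9 were lower in KO under each treatment, with medians of -0.24 under ALDO and -0.21 under control treatment, and their summed intensity was 189150 in KO ALDO, 211064 in WT ALDO, 205490 in KO control and 225712 in WT control. The 3' to 5' ratio of beta-actin given above was also lower in both KO arrays. Whether tubular RNA or RNA quality had a part in the Igf1r values was not tested.

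Igf1 encodes the ligand IGF-I, made by liver and, in tissues, by macrophages and stromal cells among others. Its brightest probe set (1437401_at) had 409 in KO ALDO, 338 in WT ALDO, 353 in KO control and 237 in WT control. WT control was the lowest array and KO ALDO the highest, with the other two close together. The KO-minus-WT difference was 0.26 under ALDO and 0.54 under control treatment, and the ALDO-minus-control difference 0.21 in KO and 0.48 in WT. A dimmer probe set with 209, 188, 153 and 109 in the order KO ALDO, WT ALDO, KO control and WT control also had its lowest value in WT control and its highest in KO ALDO. Another dim probe set (1452014_a_at) was different, with 237 in KO ALDO against 92.4 in WT ALDO, 104 in KO control and 104 in WT control. It alone among the 4 probe sets passed 2-fold, with 1.22 for KO ALDO minus WT ALDO and 1.08 for KO ALDO minus KO control. The dimmest had 67.6, 64.5, 76.8 and 54.1 in the same order. Of 10 macrophage markers with a named probe set, the 6 in the brighter 50% were all higher in KO under each treatment. Their medians were 1.13 under ALDO and 1.32 under control treatment. Their summed intensities were 10221 in KO ALDO, 4871 in WT ALDO, 9473 in KO control and 4968 in WT control. Among them C1qb had 1059 in KO ALDO, 293 in WT ALDO, 781 in KO control and 145 in WT control. Its place in the brighter 50% leaned on the KO arrays, and it had the highest difference under control treatment, 2.31. The part of macrophages in the Igf1 values was not tested.

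Igf2, the fetal growth ligand, was dim. Its brighter probe set (1448152_at) had 126 in KO ALDO, 145 in WT ALDO, 107 in KO control and 144 in WT control. Both KO arrays were below both WT arrays, with KO-minus-WT differences of -0.18 and -0.38. The other probe set was at 6.83, 17.3, 11.1 and 32.2 in that order, near the low end of the scale, and no difference was read from it.

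Igfbp2 encodes a binding protein with a preference for IGF-II. Its single probe set (1454159_a_at) was dim on average, with 278 in KO ALDO, 108 in WT ALDO, 218 in KO control and 99.4 in WT control. Both KO arrays lay above both WT arrays, and treatment made less difference. The KO-minus-WT difference was 1.24 under ALDO (2.36-fold) and 1.02 under control treatment (2.02-fold), while ALDO minus control was 0.33 in KO and 0.11 in WT. Dim genes passed 2-fold more often than bright ones: with no filter, 4.72% of 18193 genes were higher by that much in KO ALDO and 4.44% in KO control. With a pseudocount of 64 in place of 16 the differences were 0.99 and 0.79, and neither passed 2-fold. After median centring they were 1.10 and 0.91. Several marker lists also had KO-minus-WT medians above 0 under both treatments, counted in the brighter 50%. These were macrophages (values above, with Igf1, where C1qb leaned on the KO arrays), fibroblasts (0.95 under ALDO and 0.69 under control treatment) and smooth muscle (0.92 and 0.57). Parietal epithelium (0.74 and 0.45), mesangium (0.44 and 0.35) and endothelium (0.41 and 0.40) were the others. The part of all these cell types in the Igfbp2 values was not tested.

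Igfbp4, an inhibitory binding protein cut by the protease Pappa, had 6 probe sets, all in the brighter 50%. The brightest (1437405_a_at) had 20963 in KO ALDO, 22753 in WT ALDO, 23082 in KO control and 22734 in WT control, a span of 0.14 on the log2 scale. The 3 brightest differed between genotypes by -0.13 to 0.02, and the 0.02, of the brightest under control treatment, was -0.09 after median centring. The 3 dimmer ones were lower in KO under each treatment, with differences of -0.32 to -0.26 under ALDO and -0.31 to -0.24 under control treatment. Of the dimmer ones, the brightest had 8471 in KO ALDO, 10189 in WT ALDO, 8608 in KO control and 10179 in WT control. Probe sets of Igfbp4 therefore gave different sizes for the same RNA. Within a genotype, all 6 differed between ALDO and control by no more than 0.14 in either direction.

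Igfbp5, a binding protein that attaches to extracellular matrix, was read by 2 probe sets that disagreed. The brighter (1452114_s_at) had 18686 in KO ALDO, 18789 in WT ALDO, 15359 in KO control and 16259 in WT control, higher under ALDO by 0.28 in KO and 0.21 in WT. The other had 296, 264, 338 and 313 in that order, with ALDO minus control at -0.18 in KO and -0.23 in WT. The direction of the ALDO difference thus depended on the probe set. Spiked-in control RNA (18 probe sets) was lower in the ALDO arrays, with median differences of -0.11 in KO and -0.27 in WT. Igfbp5 differed between genotypes by -0.01 under ALDO and -0.08 under control treatment in the brighter probe set, where quantile normalization turned the ALDO value to 0.05.

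Igfbp7, a binding protein of low affinity for IGF that vessels secrete, was nearly level in its brightest probe set (1423584_at), with 34183 in KO ALDO, 33838 in WT ALDO, 34153 in KO control and 34125 in WT control. Its differences, at most 0.01 in size, were on both sides of 0 and turned under other scalings. A dimmer probe set had 1542, 1347, 1659 and 1693 in that order, with ALDO minus control at -0.10 in KO and -0.33 in WT. The dimmest probe set had 54.4, 34.4, 213 and 73.3, a pattern that neither of the others shared. Igfbp6, which favours IGF-II, was dim on all arrays, with 67.5 in KO ALDO, 43.4 in WT ALDO, 68.4 in KO control and 56.6 in WT control. Its KO-minus-WT differences were 0.49 and 0.22.

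**Figure D3:**
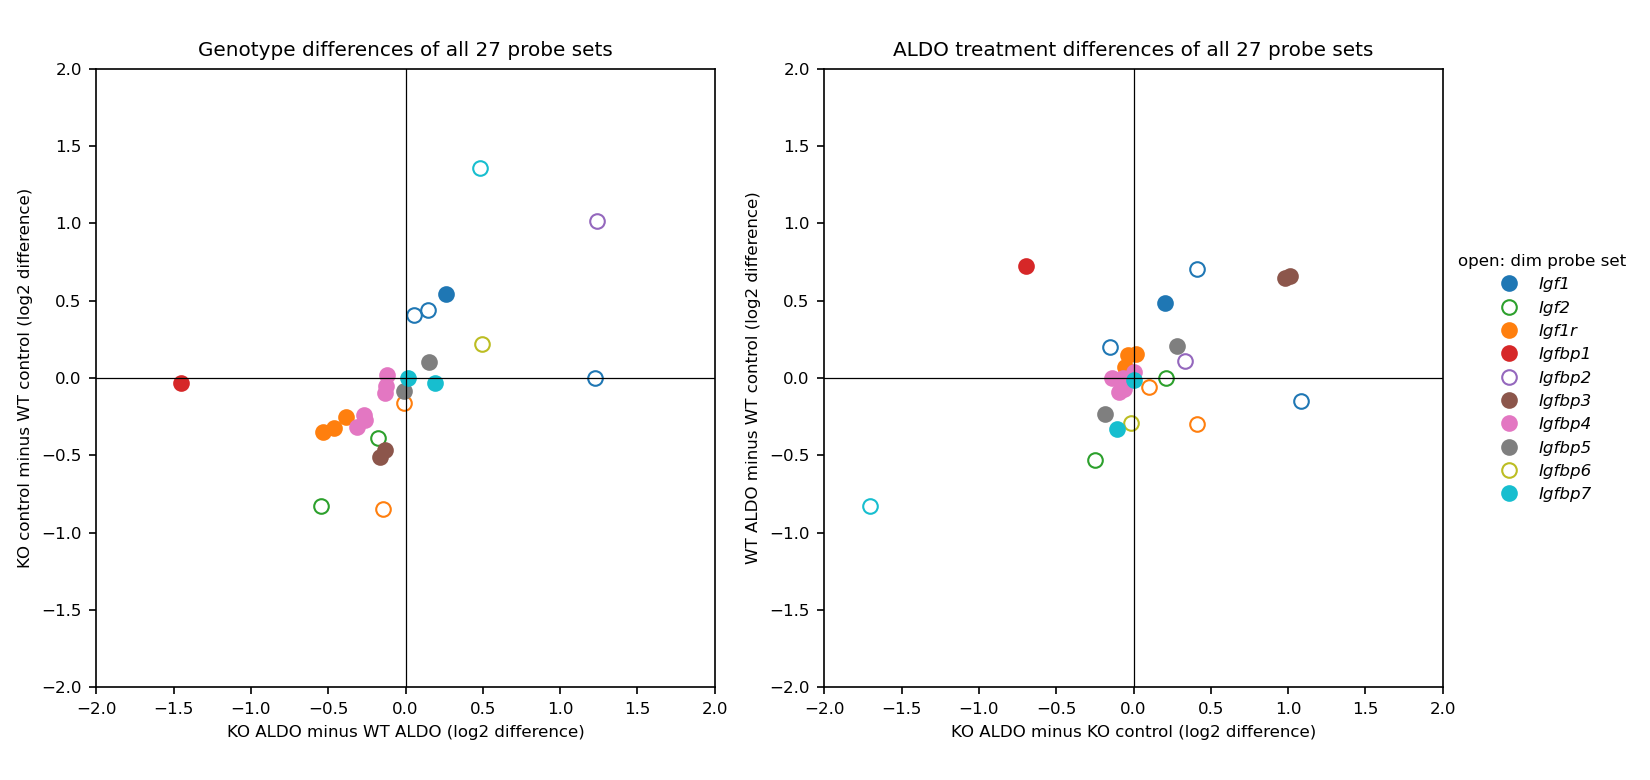
All 27 probe sets of the 10 genes, as log2 differences, with the genotype difference under ALDO (horizontal) against that under control treatment (vertical) on the left, and the ALDO difference in KO (horizontal) against that in WT (vertical) on the right. Filled points are probe sets above the limit of the brighter 50% and open points are dim ones. The filled Igf1r points lie together at the lower left of the genotype plot, the Igfbp3 points together at the upper right of the ALDO plot, and the Igfbp1 point apart from the diagonal in both.

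Other genes of the IGF pathway were described from lists. Of 64 listed genes 56 had a named probe set and 42 were in the brighter 50%. Between KO ALDO and WT ALDO 2 of the 42 were past 2-fold on the higher side and 1 on the lower, where 1.26% and 0.352% of all 9097 genes were. Between KO control and WT control none passed, where 0.967% of all genes were higher and 0.176% lower. Between KO ALDO and KO control 1 was higher (0.572% of all genes), and between WT ALDO and WT control 1 was higher (0.33%). In the difference of effects 1 was higher (Ccn1, 1.56) and 1 lower (Foxo3), where 0.594% and 0.33% of all genes were. With counts this small, nothing was read from them about the lists. The list medians were 0.04, 0.01, 0.07 and 0.01 in that order of comparisons, close to those of all genes.

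Among proteases that cut binding proteins and the inhibitors of those proteases, Stc1, a stanniocalcin that inhibits Pappa, had 294 in KO ALDO, 662 in WT ALDO, 194 in KO control and 220 in WT control. WT ALDO stood above the other arrays, as it did for Igfbp1, with -1.13 for KO ALDO minus WT ALDO and 1.52 for WT ALDO minus WT control. Both control arrays were under the limit of about 247, so Stc1 passed into the brighter 50% through the ALDO arrays, mostly WT ALDO. Its place among the pathway counts past 2-fold therefore leaned on the array where it was high. Unlike Igfbp1, Stc1 was higher in KO ALDO than in KO control, by 0.56. A dim probe set of Stc1 did not share the pattern, with -0.79 for WT ALDO minus WT control. Adamts1, a secreted metalloprotease, had 1866 in KO ALDO, 795 in WT ALDO, 1592 in KO control and 931 in WT control, with KO-minus-WT differences of 1.21 and 0.76. Htra1, a serine protease that cuts binding proteins, was nearly level, with 0.003 for KO ALDO minus WT ALDO and 0.01 for KO ALDO minus KO control, while its other bright probe set gave 0.08 and 0.04 there and -0.12 for WT ALDO minus WT control. Pappa itself was dim.

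Of the receptors and carriers, Igf2r, which takes up and degrades IGF-II, had 3407 in KO ALDO, 3036 in WT ALDO, 2620 in KO control and 2604 in WT control, with ALDO-minus-control differences of 0.38 in KO and 0.22 in WT. Insr, the insulin receptor, differed by 0.16 or less in each pair. Igfals, the acid-labile subunit, was higher in KO ALDO than in WT ALDO (0.14) and lower in KO control than in WT control (-0.38). Among the 6 genes of the growth hormone axis, the receptor Ghr had 11632 in KO ALDO, 14298 in WT ALDO, 12501 in KO control and 15093 in WT control, with KO-minus-WT differences of -0.30 and -0.27. Socs2, an inhibitor of growth hormone signalling, was at the other end, with 0.75 and 0.62.

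All 24 measured signalling genes lay within 2-fold in every pair of arrays, with 12 above 0 and 12 below between KO ALDO and WT ALDO. Foxo3, a FOXO transcription factor, had the lowest difference of ALDO effects, -1.17, from intensities of 1351 in KO ALDO, 2100 in WT ALDO, 1748 in KO control and 1198 in WT control. Its next probe set had 1070, 1162, 939 and 851 in that order and gave -0.26, so the size depended on the probe set. Foxo1 gave -0.17. The highest signalling gene between KO ALDO and WT ALDO was Eif4ebp1 (0.54), a translation repressor downstream of the kinase Mtor, which was also higher in KO control (0.30).

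Of secreted proteins related to the binding proteins, Ccn1, a matrix-associated growth regulator, had 1782 in KO ALDO, 588 in WT ALDO, 846 in KO control and 838 in WT control. KO ALDO was the highest array and WT ALDO the lowest, the reverse of Igfbp1, with a KO-minus-WT difference of 1.57 under ALDO and 0.01 under control treatment. Its next probe set gave 0.94 and 0.08. Ccn2, known as connective tissue growth factor, had 13969, 9365, 9656 and 6459 in the order KO ALDO, WT ALDO, KO control and WT control, with 0.58 for KO minus WT under each treatment and 0.53 for ALDO minus control in each genotype. Esm1, secreted by endothelial cells, was higher under ALDO by 0.19 in KO and 0.84 in WT.

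**Figure D4:**
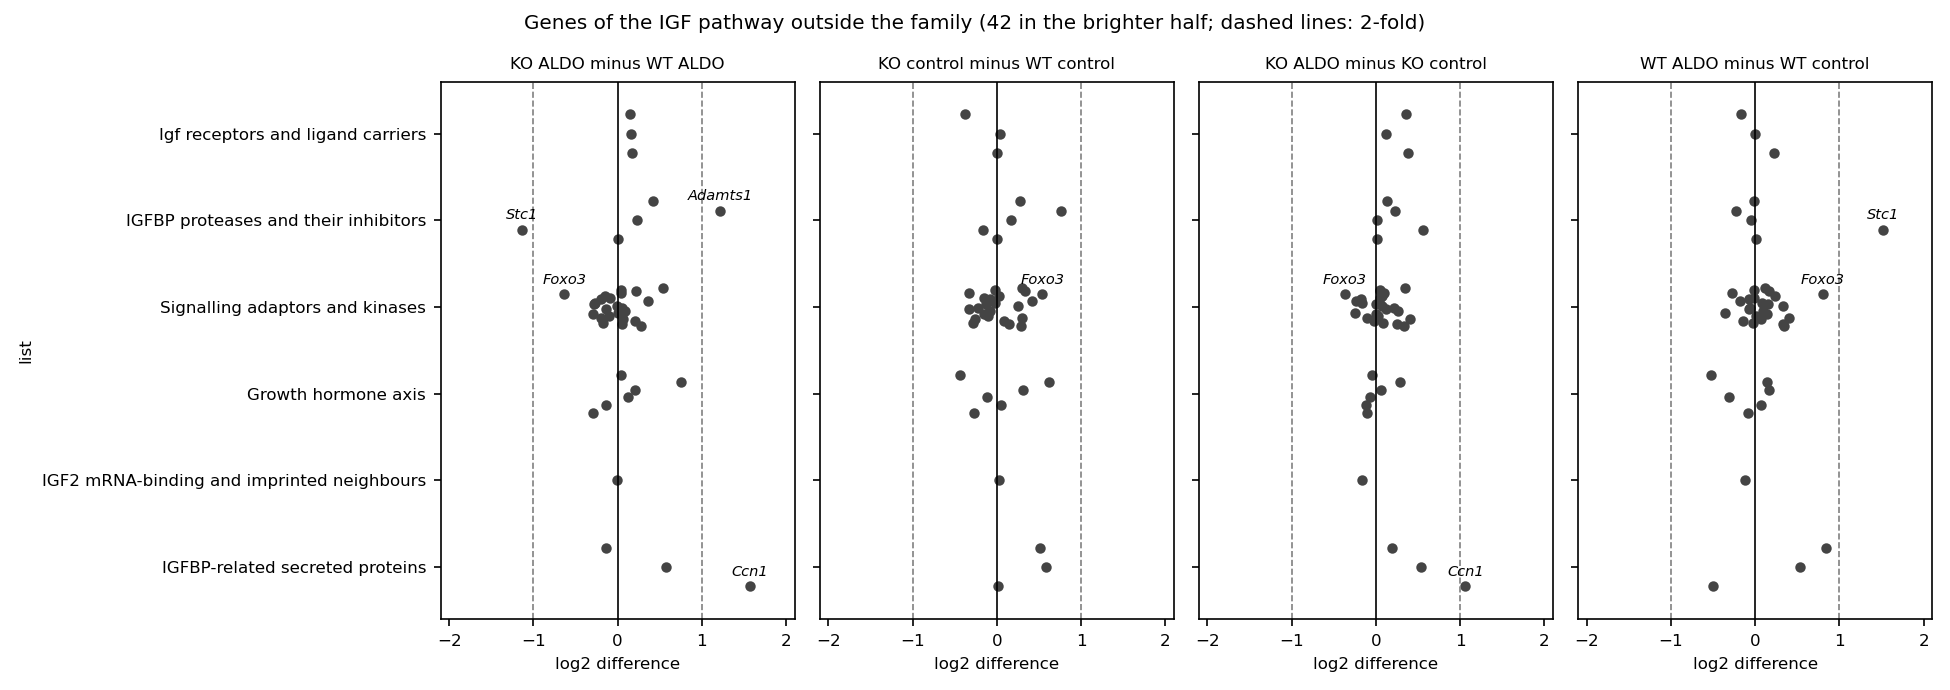
Log2 differences (horizontal axis) of the 42 pathway genes in the brighter 50%, 1 point per gene, in rows by list and panels by comparison, with dashed lines at 2-fold. Genes past 2-fold are labelled, and Foxo3 in every panel. Stc1, Adamts1 and Ccn1 pass 2-fold in the panels where they are labelled, and the other genes lie within it.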

How the data were processed

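Probe set intensities on a linear scale were deposited for each array. They came from Affymetrix Expression Console, per the submitters' processing notes; no source used here gives its algorithm, background correction or version. The mean trimmed by 2% at each end was 500.003 on every array, so the deposited intensity values share a scale and a shift of the whole transcriptome would be hidden. Of 45101 probe sets (64 of them controls, left out of the genes), 34945 had 1 gene symbol in the platform annotation, 932 had several and 9160 had none listed. Intensities were taken as log2(intensity + 16), which understates changes of dim genes. The brightest probe set by mean stood for its gene, and the brighter 50% of genes were counted. Differences are between single arrays, called at 2-fold, with no p-value. The 10 members were all named. Of the pathway lists, the genes past 2-fold were named, or else the highest and lowest between KO ALDO and WT ALDO. Igf2bp3, the only measured gene of its list, was left out. Insr, Ccn2 and Esm1 were named beyond this rule, and Foxo1, Htra1 and Pappa for their role after their values were seen. The 3 nearest patterns were named for members in the brighter 50% that spanned at least 1 on the log2 scale, which left out the dim Igfbp2. Members, lists and rules were chosen with earlier results of these data known. The steps were tested on simulated arrays with known changes in genes of the brighter 50%. Medians of groups of changed genes and the return of a copied pattern were checked there. Calls of single genes and of dim genes were not. Alternatives were pseudocounts of 1 and 64, quantile normalization, median centring, other probe sets, other filters and a 1.5-fold call. Promoter windows came from RefSeq (GRCm38.p6), where all 10 members matched. Python 3.11.15 with pandas 2.3.3 was used.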

Additional observations from a re-analysis of the deposited data

Results flagged for a closer look

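Igfbp1 differed in opposite directions with aldosterone and salt in the genotypes, -0.70 in KO and 0.73 in WT, a difference of -1.42 on the log2 scale. Foxo3 differed between genotypes in opposite directions, -0.63 under ALDO and 0.54 under control treatment, a difference of -1.17, and its next probe set gave -0.26. Both were taken up because each effect was at least 0.5 in size and of opposite sign. Ccn1 fell just short of that size, with ALDO minus control at 1.06 in KO and -0.498 in WT. Its difference of effects was 1.56, and its next probe set gave 0.86. With 1 array per group none of these differences was tested.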

How the results depend on the processing

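No paired analysis was possible because each group had 1 array. Of 285 recomputed differences of single members, 1 moved by 1.5-fold or more: Igfbp7 between KO ALDO and KO control was -0.60 with the mean of all probe sets, through its dimmest probe set. No member difference past 2-fold changed sign, but these were of Igfbp1 and Igfbp2, whose single probe sets left no other probe set to try. Of 40 recomputed medians 0 moved by 1.5-fold or more, but none was above 0.21 in size to begin with. With next-brightest probe sets the median of KO ALDO minus WT ALDO went from -0.12 to 0.01. With the mean of all probe sets the median difference of effects went from -0.13 to 0.07. That of WT ALDO minus WT control went from 0.21 to 0.06 there. Counts of members past 2-fold changed as follows. Without the filter, or with the mean of all probe sets, 1 was higher in KO ALDO than in WT ALDO and 1 in KO control than in WT control. With the next-brightest probe set, which Igfbp1 lacks, 0 were lower in KO ALDO than in WT ALDO and 0 in the difference of effects, and 1 was higher in KO ALDO than in KO control. At 1.5-fold, 1 was higher and 1 lower in KO ALDO than in KO control, and 2 were higher in WT ALDO than in WT control. Median centring shifted all genes by -0.14 between KO ALDO and WT ALDO and by -0.11 between KO control and WT control, and turned the sign of differences near 0 for Igf2, Igfbp4 and Igfbp7. Counts over all genes, 12 to 115 per comparison and direction, became 418 to 1068 without the filter, 124 to 596 at 1.5-fold, 79 to 242 with next-brightest probe sets and 6 to 35 in the brightest 25%. Dim signal limited Igf2, Igfbp2 and Igfbp6.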
